A study of Homo sapiens with 23 samples.

Results

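Telomerase and shelterin were followed through 8 genes: TERT, RTEL1, ACD, POT1, TINF2, TERF1, TERF2 and TERF2IP. They were taken by gene symbol from a table of 28395 genes, which listed all 8, and all 8 had enough reads to enter the test, which covered 16468 genes. The libraries came from 4 established lines of multiple myeloma, a cancer of plasma cells: RPMI-8226, OPM2, MM1S and H929. Each line carried either a guide RNA (sgRNA) against IRF4, a transcription factor of plasma cells, or the guide named EV, and guide expression was switched on with doxycycline for 48 h in every group. The names of the deposited files mark all 23 libraries with Cas9, the nuclease that such guides direct. Each of the 8 groups held 3 libraries, apart from the EV group of MM1S, which held 2, for 23 in all. The sources used here do not give the sequence of the IRF4 guide, say what EV stands for, or tell if the replicates of a group came from separate cultures. The p-values therefore measure the spread between these libraries, which may be technical. RNA was measured in bulk from cultures of 1 guide at 1 time, and a loss of some cells cannot be told apart from less RNA per cell.

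Telomerase extends chromosome ends by copying an RNA template, TERC, with the reverse transcriptase TERT, which most adult tissues switch off and most cancers, myeloma among them, keep on. Shelterin is the protein complex that covers telomeric repeats and keeps them from being read as broken DNA. TERF1 (TRF1) and TERF2 (TRF2) bind the double-stranded repeats, TERF2IP (RAP1) rides on TERF2, and POT1 binds the single-stranded overhang. TINF2 (TIN2) ties these together, and ACD (TPP1) links POT1 to TINF2 and brings telomerase to the end. RTEL1 is a helicase that unwinds telomeric loops during replication.

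The 8 genes lie apart in the genome. In the GRCh38.p14 annotation of RefSeq, TERT spans chr5:1253167-1295068, RTEL1 chr20:63657810-63696253, ACD chr16:67657512-67660260, POT1 chr7:124822386-124929825 and TINF2 chr14:24239640-24242674. TERF2 spans chr16:69355567-69386007 and TERF2IP chr16:75647773-75657432. Upstream of TERT stands an E-box, CACGTG, the letters bound by dimers of MYC and MAX, which activate TERT, and by dimers of MXD proteins and MAX, which repress it. The stretch is shown because factors of both kinds are described below. It is the RefSeq sequence at chr5:1295199-1295258, minus strand, read 5′ to 3′ toward TERT, with the E-box in capitals, whose first base lies 163 bases before the start.
TERT upstream stretch: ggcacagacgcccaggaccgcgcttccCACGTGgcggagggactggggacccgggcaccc
The window searched ran from 250 bases before to 50 bases after each annotated start, on both strands. RefSeq windows were at hand for 6 of the 8 genes, 8 windows in all, and that of TERT alone held CACGTG, which stood in 7.26% of 35116 windows of this length. The GC box GGGCGG matched 3 times in the TERT window and stood in 7 of the 8 windows (all 6 genes), against 45% of all windows. The ETS core CCGGAA was in 5 of the 8 windows (4 of the 6 genes) but not in that of TERT, against 17.2% of all windows. The windows of TINF2 overlap each other, so their matches are partly the same letters. The letters of a tandem IRF element (GAAA, any 2 bases, GAAA) and of an ETS-IRF composite element (GGAA, any 2 bases, GAAA) were in none of the 8 windows, against 3.57% and 2.82% of all windows. A match describes the letters only, and no binding was measured.

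Library totals ran from 6907390 to 28486960 counts, with a group of shallow libraries up to 9653222 and the others from 20320894. Both EV libraries of MM1S were shallow. IRF4 itself fell with the IRF4 guide in each line, by 1.58 on the log2 scale for H929 (adjusted p = 7.83e-07), 1.37 for MM1S (3.96e-05), 0.66 for OPM2 (0.00675) and 1.10 for RPMI-8226 (0.000173), and its libraries overlapped between guides in OPM2. Of 7 plasma cell markers none was at 0 throughout any group, and their summed level was 3500 to 17600 CPM (counts scaled to the library total after TMM scaling). That sum was higher with the IRF4 guide in H929 (16500 to 17600 CPM, against 12600 to 14700 CPM with the EV guide), MM1S (6880 to 7420 CPM, against 6500 to 6620 CPM with the EV guide) and RPMI-8226 (4120 to 5290 CPM, against 3500 to 3830 CPM with the EV guide). It was lower in OPM2 (8570 to 9300 CPM, against 9800 to 10900 CPM with the EV guide). The sum weighs its genes unequally, since JCHAIN had 2210 to 13000 CPM over the libraries and CD38 6.51 to 92.5 CPM. Single markers also went the other way. Of the 7, 2 were lower with the IRF4 guide in all 4 lines at an adjusted p under 0.05, as were 3.83% of all genes. In all 4 lines 0 of the 7 were higher, where 5.14% of all genes were. The sum of 4 T and NK cell markers was 265 to 292 CPM with the IRF4 guide and 205 to 251 CPM with the EV guide in H929. In RPMI-8226 that sum was 185 to 218 CPM with the IRF4 guide, against 148 to 176 CPM with the EV guide. It was lower with the IRF4 guide in OPM2 (64.1 to 93.4 CPM, against 99.2 to 117 CPM with the EV guide). In MM1S it was 8.80 to 11.6 CPM with the IRF4 guide, against 5.47 to 6.12 CPM with the EV guide. Over all libraries the highest single values were 236 CPM for NCAM1, 119 CPM for CD3E, 12.3 CPM for NKG7 and 1.12 CPM for CD3D. The sum of 3 stromal and epithelial markers was 184 to 194 CPM with the IRF4 guide and 227 to 237 CPM with the EV guide in RPMI-8226 and at most 4.89 CPM elsewhere, and myeloid and erythroid sums were at most 3.52 CPM. Their part in the results was not tested.

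The outcome for the 8 genes was uneven. With the IRF4 guide TERT fell steeply and ACD fell modestly, while TINF2 and TERF2IP rose modestly, on the average of the 4 lines. POT1 fell in MM1S and was not called elsewhere, and TERF1, TERF2 and RTEL1 were not called in any line. Called means a Benjamini-Hochberg adjusted p under 0.05 in edgeR's quasi-likelihood test over all genes tested. In H929, 2 of the 8 fell and 2 rose, where 58.9% of all genes were called, 26.1% lower and 32.9% higher. In MM1S, 2 fell and 1 rose (34.6% of all genes called, 15.2% lower and 19.4% higher). In OPM2, 2 fell and 0 rose (43.5% called, 20.2% lower and 23.3% higher), and in RPMI-8226 also 2 fell and 0 rose (33.9% called, 14.7% lower and 19.2% higher). On the average of the lines 2 fell and 2 rose, where 63.7% of the 14927 genes that could be called were called. The shares called among the 8 thus lay near or below those of genes at large, and their median change on the average was -0.03, against 0.09 over those 14927 genes. For the counts of 0 rises, 1 gene of the 8 (POT1) in OPM2 and 0 in RPMI-8226 had a positive estimate with an unadjusted p under 0.05, and DESeq2 also called 0 rises in both.

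**Figure D1:**
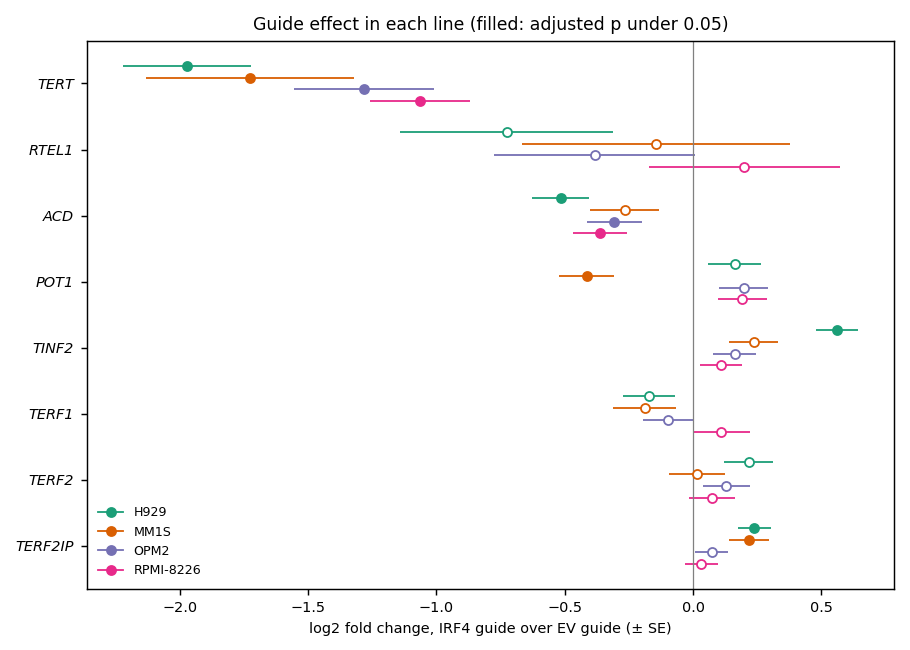
The x axis gives the log2 fold change of each of the 8 genes, IRF4 guide over EV guide, with its standard error, and colours mark the lines; filled points passed the adjusted p threshold of 0.05. TERT lies left of all other genes in every line, from -1.97 in H929 to -1.06 in RPMI-8226, and the POT1 point of MM1S (-0.41) lies apart from those of the other lines (0.16 to 0.20).

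TERT was the gene with the large change. It was chosen knowing of its fall, so the p-values describe the change and add no independent support. In H929 it stood at 1.48, 1.81 and 2.37 CPM in the IRF4 guide libraries, against 6.43, 9.13 and 7.22 CPM in the EV libraries. In MM1S the IRF4 guide libraries had 0.632, 1.21 and 0.693 CPM and the EV libraries 2.55 and 2.68 CPM. Every IRF4 guide library of these lines was below every EV library. In OPM2 TERT had 1.03, 1.82 and 0.830 CPM with the IRF4 guide, against 2.90, 4.27 and 2.25 CPM with the EV guide. In RPMI-8226 it had 6.69, 9.62 and 7.43 CPM with the IRF4 guide, against 16.05, 17.6 and 16.01 CPM with the EV guide. The groups were separate here too, so TERT was lower without overlap in all 4 lines, which held for 5.67% of all genes, and 0 of the 8 genes were higher without overlap in all 4, where 7.09% of all genes were. The order was then bound to be the same within the shallow and within the deeper libraries of a line, so this adds nothing on depth. The TERT levels rest on 5 to 450 reads per library. In the annotation TERT overlaps LOC107987433 by 3849 bases and LOC124905596 by 5583 bases. Neither of those was among the genes counted, and reads in the shared bases could belong to either gene.

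On the log2 scale TERT fell by 1.97 ± 0.25 (SE) in H929 (adjusted p = 5.67e-08), by 1.73 ± 0.41 in MM1S (0.00120), by 1.28 ± 0.27 in OPM2 (0.000297) and by 1.06 ± 0.20 in RPMI-8226 (8.87e-05). The average over the lines was -1.51 ± 0.15 (adjusted p = 2.60e-10), which is 0.351 of the EV level. TERT was lower in 11 of 11 pairs of libraries with the same number, which follows from groups without overlap. It was called lower in all 4 lines, as were 3.83% of all genes. No alternative processing and no left-out library ended these calls. Whether the fall differed between lines depended on the processing. The adjusted p of that difference was 0.0877, but 0.0439 with no filter on low counts, 0.0406 without H929 IRF4 guide replicate 3, and 0.0355 or 0.0261 with a replicate block shared by the lines or set within each line.

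With the EV guide TERT was highest in RPMI-8226, at 16.6 ± 0.91 CPM (SD, n = 3), followed by H929 at 7.59 ± 1.39 CPM (n = 3), OPM2 at 3.14 ± 1.03 CPM (n = 3) and MM1S at 2.61 ± 0.09 CPM (n = 2). RPMI-8226 exceeded H929 by 1.16 ± 0.20 on the log2 scale (adjusted p = 6.78e-06) and H929 exceeded OPM2 by 1.33 ± 0.23 (9.74e-06). OPM2 and MM1S did not differ beyond their spread (0.17 ± 0.33, adjusted p = 0.679). With the IRF4 guide TERT kept the same first and second place, at 7.91 ± 1.52 CPM in RPMI-8226 and 1.89 ± 0.45 CPM in H929 (SD, n = 3 each), a difference that was not tested.

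**Figure D2:**
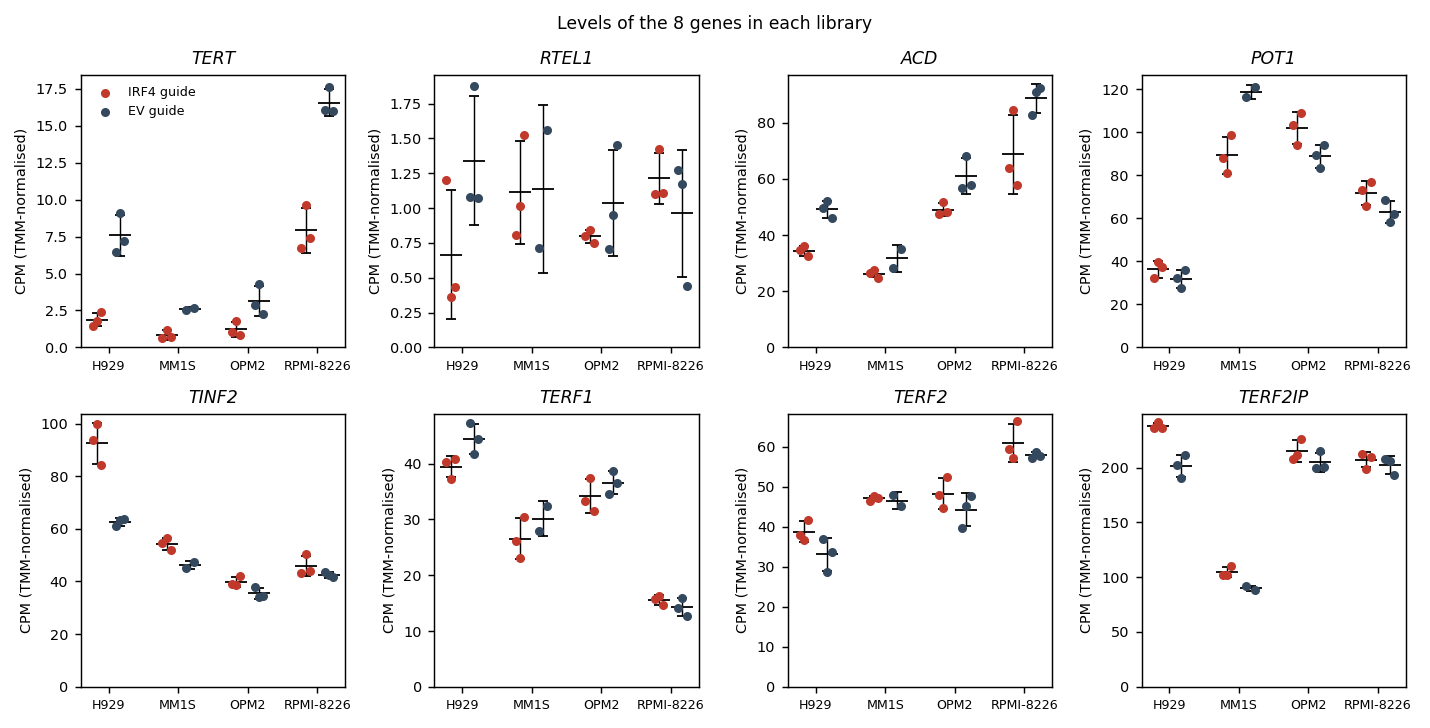
Each panel shows 1 gene in CPM on a linear axis from 0, with a point per library, IRF4 guide left of EV guide in each line, and a bar with whiskers for the mean and SD. For TERT the IRF4 guide points lie below the EV points in every line, and RPMI-8226 keeps 6.69 to 9.62 CPM with the IRF4 guide; for TINF2 the groups are widest apart in H929.

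RTEL1 was too thinly covered to follow. It had 3 to 35 reads per library and 440 over all 23 libraries. It averaged 0.666 ± 0.465 CPM with the IRF4 guide and 1.34 ± 0.46 CPM with the EV guide in H929 (SD, n = 3 each), and its libraries overlapped between guides in every line. It was not called in any line, with an average of -0.26 ± 0.22 (adjusted p = 0.319). RTEL1 was called in H929 by limma on the deposited log2 RPKM (-2.03, adjusted p = 0.00170, and -0.75, 0.0158 on the average) and, in the counts, without H929 IRF4 guide replicate 1 (-1.60, adjusted p = 0.00905). A readthrough transcript, RTEL1-TNFRSF6B, covers the whole gene in the annotation and had 0 counts in all libraries, and how reads shared by the pair were counted was not stated. Its level is therefore uncertain.

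ACD, which brings telomerase to the chromosome end, was the other gene to fall. In H929 it had 34.7, 36.1 and 32.4 CPM with the IRF4 guide, against 49.5, 52.1 and 46.0 CPM with the EV guide. In MM1S it had 26.6, 27.4 and 24.8 CPM with the IRF4 guide, against 28.3 and 35.1 CPM with the EV guide. Both lines had all IRF4 guide libraries below all EV libraries. In OPM2 ACD had 47.4, 51.7 and 48.0 CPM with the IRF4 guide, against 56.9, 68.2 and 57.8 CPM with the EV guide, again without overlap. In RPMI-8226 it had 63.8, 84.6 and 57.9 CPM with the IRF4 guide, against 82.8, 90.8 and 92.1 CPM with the EV guide, and IRF4 guide replicate 2 reached into the EV range. Ranges without overlap in the lower direction were found for 27.7% of all genes in H929, for 24.0% with MM1S, for 23.9% with OPM2 and for 18.4% with RPMI-8226. In the higher direction they were found for 34.4%, 31.4%, 28.0% and 24.8% of all genes, in the same order of lines.

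ACD fell by 0.52 ± 0.11 on the log2 scale in H929 (adjusted p = 0.000194), by 0.31 ± 0.11 in OPM2 (0.0201) and by 0.36 ± 0.10 in RPMI-8226 (0.00777), and its estimate in MM1S was -0.27 ± 0.13 (0.131). The average was -0.36 ± 0.06 (adjusted p = 2.46e-06), 0.778 of the EV level, and it was lower in 11 of 11 same-numbered pairs. The call in OPM2 was lost with upper-quartile scaling (-0.25, adjusted p = 0.0641), on the deposited log2 RPKM (-0.25, 0.0844), and without OPM2 IRF4 guide replicate 1 (-0.28, 0.0694), IRF4 guide replicate 3 (-0.29, 0.0560) or EV replicate 2 (-0.22, 0.147). The call in RPMI-8226 was lost without its IRF4 guide replicate 3 (-0.27, adjusted p = 0.0586), and with MM1S fitted alone a call was gained there (-0.33, adjusted p = 0.0329). The test for a difference of the ACD effect between lines gave an adjusted p of 0.550. ACD overlaps CARMIL2 by 58 bases in the annotation, and reads in those bases could belong to either gene.

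POT1, the partner of ACD on the overhang, went different ways in different lines. In MM1S it had 88.0, 81.1 and 98.5 CPM with the IRF4 guide, against 116 and 121 CPM with the EV guide. There it fell by 0.41 ± 0.11 on the log2 scale (adjusted p = 0.00281), with no overlap between groups. In OPM2 it had 103, 94.1 and 109 CPM with the IRF4 guide, all above the 89.4, 83.2 and 93.8 CPM with the EV guide, at 0.20 ± 0.09 (adjusted p = 0.0908). That estimate passed the threshold with upper-quartile scaling (0.26, adjusted p = 0.0278) and with OPM2 fitted alone (0.20, 0.0454).

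In H929 POT1 had 32.0, 39.7 and 37.5 CPM with the IRF4 guide and 32.2, 27.6 and 35.9 CPM with the EV guide. In RPMI-8226 it had 73.3, 65.7 and 76.6 CPM with the IRF4 guide and 68.3, 58.4 and 62.0 CPM with the EV guide. The groups overlapped in both lines, at 0.16 ± 0.10 (adjusted p = 0.177) and 0.19 ± 0.10 (0.124). The guide effect differed between the 4 lines (adjusted p = 0.00152, F test of the equality of the line contrasts), and the average was 0.03 ± 0.05 (0.625). It was 1 of 2 genes of the 8 whose effect differed between lines, where 48.0% of all genes did, and TINF2 was the other.

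TINF2, the hub that joins both ends of shelterin, rose in H929. It had 93.7, 99.7 and 84.2 CPM there with the IRF4 guide, against 61.0, 63.3 and 63.6 CPM with the EV guide. In MM1S it had 54.6, 56.4 and 52.0 CPM with the IRF4 guide, against 45.1 and 47.3 CPM with the EV guide. The groups were separate in both lines, and the gap was widest in H929. In OPM2 TINF2 had 38.9, 38.5 and 42.1 CPM with the IRF4 guide, against 38.0, 34.0 and 34.5 CPM with the EV guide, still without overlap. In RPMI-8226 it had 43.3, 50.4 and 44.1 CPM with the IRF4 guide and 43.7, 42.4 and 41.6 CPM with the EV guide, which overlapped.

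TINF2 rose by 0.56 ± 0.08 on the log2 scale in H929 (adjusted p = 5.99e-07), 1.48 times the EV level. The estimates were 0.24 ± 0.10 in MM1S (0.0579), 0.16 ± 0.08 in OPM2 (0.119) and, for RPMI-8226, 0.11 ± 0.08 (0.330). The average was 0.27 ± 0.04 (adjusted p = 3.20e-06). In MM1S TINF2 passed the threshold on the deposited log2 RPKM (0.23, adjusted p = 0.0393) and in OPM2 with upper-quartile scaling (0.22, 0.0293). Its effect differed between lines (adjusted p = 0.00632), and the range of that p over left-out libraries was 0.00187 to 0.0325.

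TERF2IP, the most abundant shelterin transcript per length, rose slightly in H929 and MM1S. It had 236, 241 and 236 CPM with the IRF4 guide and 202, 191 and 211 CPM with the EV guide in H929. It had 102, 102 and 110 CPM with the IRF4 guide and 91.5 and 88.3 CPM with the EV guide in MM1S. The groups did not overlap in either line, but in OPM2 and RPMI-8226 they did. The changes were 0.24 ± 0.06 in H929 (adjusted p = 0.00212) and 0.22 ± 0.08 in MM1S (0.0262), against estimates of 0.07 ± 0.06 in OPM2 (0.395) and 0.03 ± 0.06 in RPMI-8226 (0.755), and the average was 0.14 ± 0.03 (0.000661). In OPM2 TERF2IP was called on the deposited log2 RPKM (0.18, adjusted p = 0.0149). Fitted alone, H929 gave 0.17 (adjusted p = 0.0541) and MM1S 0.16 (0.125). The MM1S call was also lost with no filter on low counts (0.21, adjusted p = 0.157) and without MM1S IRF4 guide replicate 3 (0.18, 0.0867), EV replicate 2 (0.24, 0.0862) or EV replicate 3 (0.19, 0.175).

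The duplex-binding proteins TERF1 and TERF2 were not called in any line. TERF1 averaged 39.5 ± 1.9 CPM with the IRF4 guide and 44.5 ± 2.7 CPM with the EV guide in H929 (SD, n = 3 each), without overlap, at -0.17 ± 0.10 (adjusted p = 0.145). With H929 fitted alone it was called (-0.24, adjusted p = 0.0323). Its average over the lines was -0.09 ± 0.05 (adjusted p = 0.184). TERF2 averaged 38.8 ± 2.6 CPM with the IRF4 guide and 33.1 ± 4.1 CPM with the EV guide in H929 (SD, n = 3 each), with overlap, at 0.22 ± 0.10 (adjusted p = 0.0502). Its average was 0.11 ± 0.05 (0.0536). Both values of TERF2 lay at the threshold and passed it under several alternatives, among them DESeq2 (adjusted p = 0.0215 in H929 and 0.0363 on the average).

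At baseline 7 of the 8 genes differed in level between the EV groups of the 4 lines, where 93.1% of all genes did, and RTEL1 was the exception (adjusted p = 0.919). POT1 was highest in MM1S at 119 ± 3.4 CPM (SD, n = 2) and lowest in H929 at 31.9 ± 4.2 CPM (n = 3), with OPM2 and RPMI-8226 between and each neighbour in that order different, also in every alternative that compared the EV groups. ACD ran the other way for MM1S, which was lowest at 31.7 ± 4.8 CPM (n = 2), with RPMI-8226 highest at 88.6 ± 5.1 CPM (n = 3) and all neighbours different, although OPM2 and H929 did not pass the threshold without OPM2 EV replicate 2 (adjusted p = 0.0532) or with a replicate block within each line (0.102). TERF1 was highest in H929 at 44.5 ± 2.7 CPM and lowest in RPMI-8226 at 14.3 ± 1.6 CPM (n = 3 each), with OPM2 and MM1S between. The call between H929 and OPM2 for TERF1 was lost without H929 EV replicate 1 (adjusted p = 0.0653), H929 EV replicate 3 (0.0531) or OPM2 EV replicate 1 (0.0663), and that between OPM2 and MM1S without any of 8 single libraries, up to 0.382 without MM1S EV replicate 2. TERF2 was highest in RPMI-8226 and lowest in H929, and MM1S and OPM2 did not differ beyond their spread (0.08 ± 0.11, adjusted p = 0.566), nor did RPMI-8226 and MM1S without MM1S EV replicate 3 (adjusted p = 0.0914) or with that block (0.0982). TINF2 was highest in H929 and lowest in OPM2, and MM1S and RPMI-8226 did not differ beyond their spread (0.12 ± 0.10, adjusted p = 0.293), nor did RPMI-8226 and OPM2 without OPM2 EV replicate 2 (adjusted p = 0.128), with that block (0.0863) or with no filter on low counts (0.131). TERF2IP was at 201 to 205 CPM in H929, RPMI-8226 and OPM2, which did not differ beyond their spread, and at 89.9 ± 2.3 CPM in MM1S (n = 2), a level that H929 exceeded by 1.16 ± 0.08 on the log2 scale (adjusted p = 3.93e-14).

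Taken pair by pair between EV groups, 5 of the 8 genes were higher and 2 lower in H929 than in MM1S, where 63.1% of all genes differed (32.8% higher and 30.3% lower). Against OPM2, 3 were higher and 3 lower in H929 (65.4% of all genes, 35.3% higher and 30.1% lower). Against RPMI-8226, 2 were higher and 4 lower in H929 (75.1%, 37.0% higher and 38.1% lower). MM1S had 2 higher and 3 lower than OPM2 (61.4%, 32.0% higher and 29.4% lower) and 2 higher and 4 lower than RPMI-8226 (67.7%, 32.4% higher and 35.3% lower). OPM2 had 2 higher and 4 lower than RPMI-8226 (72.9%, 33.6% higher and 39.4% lower). These pairs share their EV groups.

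Levels can be compared between genes only per length, for which the deposited log2 RPKM, which divide by gene length and library size, were turned back to RPKM. The EV group means of TERT ran from 0.609 to 3.50 RPKM over the lines, those of TERF2IP from 41.0 to 91.1 RPKM and those of ACD from 15.1 to 42.2 RPKM. The RPKM had been normalised further between libraries. TERT in H929 had 0.267 ± 0.068 RPKM with the IRF4 guide and 1.66 ± 0.30 RPKM with the EV guide (SD, n = 3 each), a wider gap than in CPM.

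As a share of the summed RPKM of the 6 shelterin subunits, which was not tested, TERF2IP made up 59.0% ± 0.42 with the IRF4 guide, against 56.0% ± 1.41 with the EV guide in H929 (SD, n = 3 each). In MM1S, where TERF2IP was lowest, it made up 40.9% ± 0.50 with the IRF4 guide (n = 3) and 34.4% ± 1.57 with the EV guide (n = 2). ACD had a smaller share with the IRF4 guide in each line, for example 9.14% ± 0.38 with the IRF4 guide, against 14.5% ± 1.39 with the EV guide, in H929. In RPMI-8226 it had 18.2% ± 3.39 with the IRF4 guide, against 23.3% ± 1.45 with the EV guide, and single libraries overlapped. POT1 made up 17.1% ± 1.16 with the IRF4 guide, against 22.7% ± 0.22 with the EV guide in MM1S, and 4.54% ± 0.45 with the IRF4 guide, against 4.46% ± 0.37 with the EV guide, in H929, the lowest of the lines. TINF2 made up 14.05% ± 1.01 with the IRF4 guide, against 10.5% ± 0.45 with the EV guide in H929. The ratio of POT1 to ACD in H929 was 0.431, 0.516 and 0.545 in the IRF4 guide libraries, against 0.311, 0.255 and 0.366 in the EV libraries. Ratios in H929 thus did not overlap, nor did those in OPM2, at 0.855 to 1.07 with the IRF4 guide and 0.574 to 0.766 with the EV guide. They overlapped in MM1S, at 1.42 to 1.94 with the IRF4 guide and 1.66 to 1.95 with the EV guide, and in RPMI-8226, at 0.369 to 0.619 with the IRF4 guide and 0.305 to 0.388 with the EV guide.

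**Figure D3:**
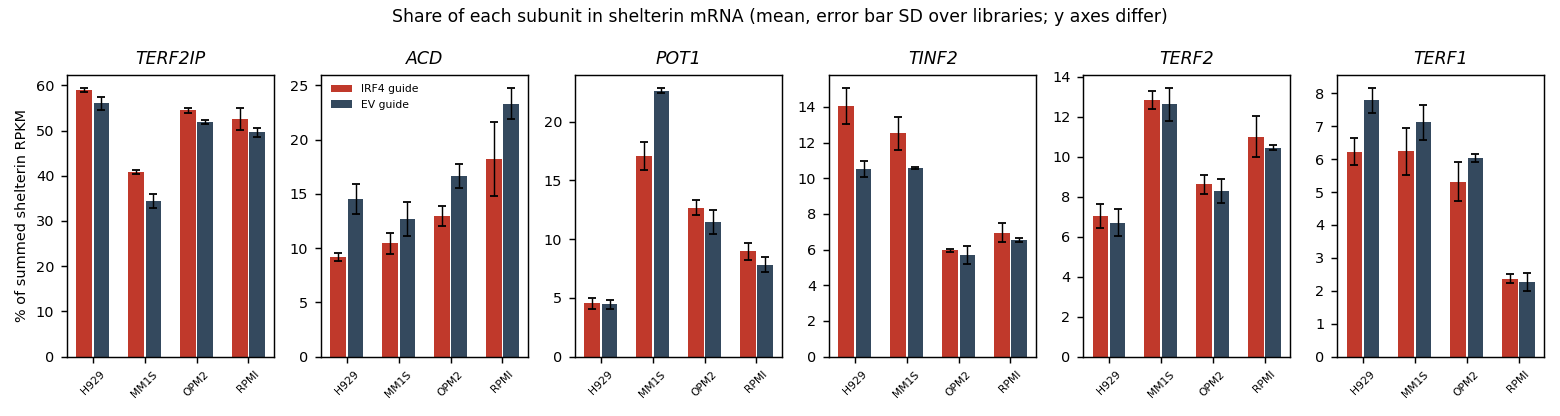
Bars give the mean share of each of the 6 subunits in their summed RPKM, in percent, IRF4 guide left of EV guide in each line (RPMI stands for RPMI-8226), with the SD over 3 libraries (2 for MM1S EV); the y axes start at 0 and differ between panels. TERF2IP leads in each line, and the ACD bars are lower with the IRF4 guide in each line.

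Most genes listed for telomerase and its assembly had less RNA with the IRF4 guide on the average, as TERT did. Of 16 tested genes of the telomerase RNP and its assembly, 13 fell and 1 rose on the average of the lines, where 27.7% of all genes fell and 36.0% rose, and their median was -0.38, against 0.09 over all genes. By line 12 of the 16 fell in H929, 11 fell in OPM2, 8 fell in RPMI-8226 and 6 fell in MM1S, beside 26.1%, 20.2%, 14.7% and 15.2% of all genes. PINX1, a nucleolar protein that binds TERT and can inhibit telomerase, fell by 0.85 ± 0.06 (adjusted p = 3.43e-13). The ATPases RUVBL1 and RUVBL2, which help assemble the enzyme, fell by 0.64 ± 0.04 (2.05e-13) and 0.61 ± 0.05 (3.36e-12), although RUVBL1 in MM1S was at -0.11 ± 0.10 (0.408).

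NAF1, which loads the proteins that hold TERC, fell by 0.67 ± 0.05 on the average (adjusted p = 1.80e-12). PINX1, NAF1, RUVBL2 and DKC1 (dyskerin, which binds TERC) were the 4 called lower in all lines, as were 3.83% of all genes, and the RUVBL2 call in MM1S was lost without MM1S EV replicate 3 (-0.33, adjusted p = 0.0818). TEP1, a telomerase-associated protein, was the 1 that rose, by 0.79 ± 0.12 (1.57e-05). TEP1 was called in H929 (1.47 ± 0.23, adjusted p = 1.79e-05) and OPM2 (0.76 ± 0.24, 0.0158), but not in MM1S (0.70 ± 0.29, 0.0687) or RPMI-8226 (0.25 ± 0.22, 0.428). TERC itself was not tested, since its groups had 1 to 16 reads in all.

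Among CST, the complex that ends telomerase action and fills in the complementary strand, and its partner polymerase alpha-primase, 4 of 6 tested genes fell and 1 rose on the average (median -0.49), beside 27.7% and 36.0% of all genes. The 4 that fell were the subunits of polymerase alpha-primase, not of CST. PRIM1, POLA1 and POLA2, subunits of the polymerase, fell by 0.83 ± 0.06 (adjusted p = 1.46e-13), 0.77 ± 0.05 (1.89e-13) and 0.64 ± 0.05 (6.33e-13). STN1, a CST subunit, rose by 0.69 ± 0.05 on the average (adjusted p = 2.05e-12) and in each line, from 0.41 ± 0.10 in OPM2 (0.00188) to 1.36 ± 0.09 in H929 (2.63e-13). The OPM2 value was 0.28 on the deposited log2 RPKM (adjusted p = 0.0633). In RPMI-8226 edgeR called 0 of the 6 lower, whereas 4 of 6 fell in each other line, and the effect differed between lines for all 6 genes, beside 48.0% of all genes. There POLA1 alone had an unadjusted p under 0.05 (-0.24 ± 0.10, adjusted p = 0.0617), and it was called by DESeq2 (-0.26, adjusted p = 0.0490). CTC1, another CST subunit, was called only in OPM2, where it was lower (-0.37 ± 0.09, adjusted p = 0.00110). PRIM2 was not called in that line (-0.24 ± 0.11, 0.0773), so the 4 that fell in OPM2 included CTC1 in its place. TEN1, also of CST, had 0 counts in every library.

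Of 18 shelterin partners and end-processing genes 11 fell and 7 rose on the average (median -0.27), beside 27.7% and 36.0% of all genes. EXO1, which resects the end, fell by 1.05 ± 0.05 (adjusted p = 1.16e-16), and FEN1, the flap nuclease, by 0.86 ± 0.05 (7.75e-16). EXO1 was at 75.7 ± 8.3 CPM with the IRF4 guide and 73.6 ± 5.9 CPM with the EV guide in RPMI-8226 (SD, n = 3 each), and at 17.99 ± 2.8 CPM with the IRF4 guide, against 84.4 ± 6.2 CPM with the EV guide, in H929. XRCC5, a Ku subunit, fell by 0.60 ± 0.04 (2.05e-14), and RIF1, a replication timing factor, by 0.67 ± 0.04 (7.85e-14). XRCC5 and XRCC6, the other Ku subunit, were the 2 called lower in all lines, with XRCC5 in RPMI-8226 (-0.21 ± 0.07, adjusted p = 0.0257) not called on the deposited log2 RPKM (-0.12, 0.245). That call was also lost without RPMI-8226 IRF4 guide replicate 1 (0.0853) or 3 (0.0542) or EV replicate 1 (0.0635) or 2 (0.147). In RPMI-8226 only 2 of the 18 fell and 4 rose, and the effect differed between lines for 16 of the 18, beside 48.0% of all genes. RIF1 in RPMI-8226 (-0.19 ± 0.09, adjusted p = 0.0835) was called lower with RLE (0.0420) or upper-quartile scaling (0.0494), DESeq2 (0.0409) and that line fitted alone (0.0436).

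Of 5 genes tied to recombination-based telomere maintenance, the telomerase-free route, 1 fell and 3 rose on the average, beside 27.7% and 36.0% of all genes. FANCM, a helicase of stalled forks, fell by 0.56 ± 0.07 (adjusted p = 1.20e-07). On the average ATRX and DAXX, the histone chaperone pair lost in many tumours that use this route, rose by 0.27 ± 0.04 (adjusted p = 2.09e-06) and 0.15 ± 0.04 (0.00166), and SLX4IP by 0.48 ± 0.10 (0.000122). ATRX and SLX4IP were each called higher in 3 lines, but not in MM1S (0.01 ± 0.09, adjusted p = 0.972, and 0.12 ± 0.21, 0.723). The ATRX call was lost in OPM2 without IRF4 guide replicate 3 (0.0825) or EV replicate 1 (0.0985), and in RPMI-8226 without IRF4 guide replicate 3 (0.0624). DAXX was called higher in 2 lines, but not in OPM2 (-0.06 ± 0.08, 0.534) or RPMI-8226 (0.03 ± 0.08, 0.839). Its call in MM1S (0.0386) was lost with RLE scaling (0.0589), no filter (0.142), DESeq2 (0.0501) and MM1S fitted alone (0.0955). Leaving out single libraries also ended it, up to 0.168 without MM1S EV replicate 3. On the deposited log2 RPKM the SLX4IP calls were lost, and each was also lost without single libraries of its line. The effect differed between lines for 3 of the 5 genes, beside 48.0% of all genes.

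**Figure D4:**
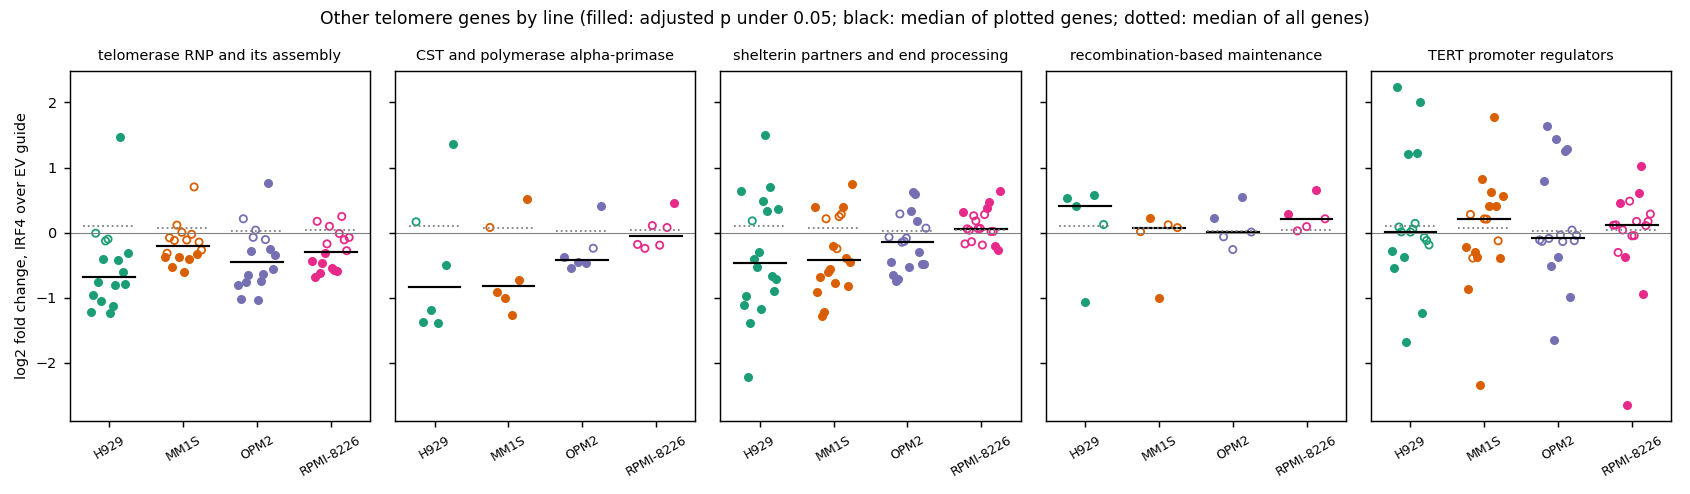
Each point is the log2 fold change of 1 gene, IRF4 guide over EV guide, by list and line, filled where the adjusted p was under 0.05, with a black line at the median of the plotted genes and a dotted line at the median of all genes; WT1, read mainly in OPM2, is left out of the last panel. The telomerase RNP medians lie below the dotted line in each line, whereas the CST and end-processing medians come near it in RPMI-8226.

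Regulators of the TERT promoter moved in both directions, 6 lower and 6 higher of 17 that could be called on the average, beside 27.7% lower and 36.0% higher of all genes. MXD4 and MXD1, which pair with MAX on E-boxes, rose by 1.52 ± 0.05 (adjusted p = 3.66e-19) and 0.93 ± 0.06 (8.57e-14) and were the 2 called higher in all lines. MXD4 averaged 218 ± 25 CPM with the IRF4 guide and 54.2 ± 9.9 CPM with the EV guide in H929, and 48.4 ± 4.2 CPM with the IRF4 guide, against 24.1 ± 3.3 CPM with the EV guide, in RPMI-8226 (SD, n = 3 each).

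MYC was at 179 ± 14 CPM with the IRF4 guide and 421 ± 22 CPM with the EV guide in H929 (SD, n = 3 each), a fall of 1.24 ± 0.10 on the log2 scale (adjusted p = 1.54e-11). It also fell in OPM2, by 0.99 ± 0.10 (4.66e-09), and in RPMI-8226, by 0.94 ± 0.10 (2.81e-08). In MM1S MYC had 758 ± 52 CPM with the IRF4 guide (n = 3) and 569 ± 25 CPM with the EV guide (n = 2), higher by 0.42 ± 0.11 (0.00418), which became 0.37 (0.0621) without MM1S EV replicate 3. TERT fell in that line as well, by 1.73. GABPB1, a subunit of the ETS-family factor GABP, fell by 0.41 ± 0.05 on the average (adjusted p = 5.90e-09). GABPB1 and KLF2 were the 2 called lower in all lines, the GABPB1 call in MM1S being lost without MM1S EV replicate 3 (-0.34, adjusted p = 0.0609). Whether any of these factors acted on TERT was not tested.

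The genes next to TERT on chromosome 5 were also read. CLPTM1L, 22.7 kb beyond the side where TERT starts, fell in all 4 lines, by 0.75 ± 0.08 in H929 (adjusted p = 1.10e-09), 0.59 ± 0.09 in MM1S (2.93e-06), 1.02 ± 0.08 in OPM2 (9.79e-12) and, in the RPMI-8226 line, 0.62 ± 0.08 (4.00e-07). LPCAT1, 166 kb away on the same side and an enzyme of membrane phospholipids, fell in H929 (-0.98 ± 0.12, 7.68e-08) and OPM2 (-0.97 ± 0.12, 2.46e-07) but was at 0.15 ± 0.13 in MM1S (0.417) and 0.24 ± 0.11 in RPMI-8226 (0.111), where LPCAT1 was called higher on the deposited log2 RPKM (0.36, adjusted p = 0.0309). SLC6A3, SLC6A18 and SLC6A19, transporters of the same region, had at most 49 reads in any group. SLC6A3 had 13 reads with the IRF4 guide, against 0 with the EV guide in MM1S, and 20 reads with the IRF4 guide, against 49 with the EV guide, in RPMI-8226. Both passed the threshold, but the call in MM1S was lost with no filter on low counts (adjusted p = 0.0542) and that in RPMI-8226 with DESeq2 (0.125).

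**Figure D5:**
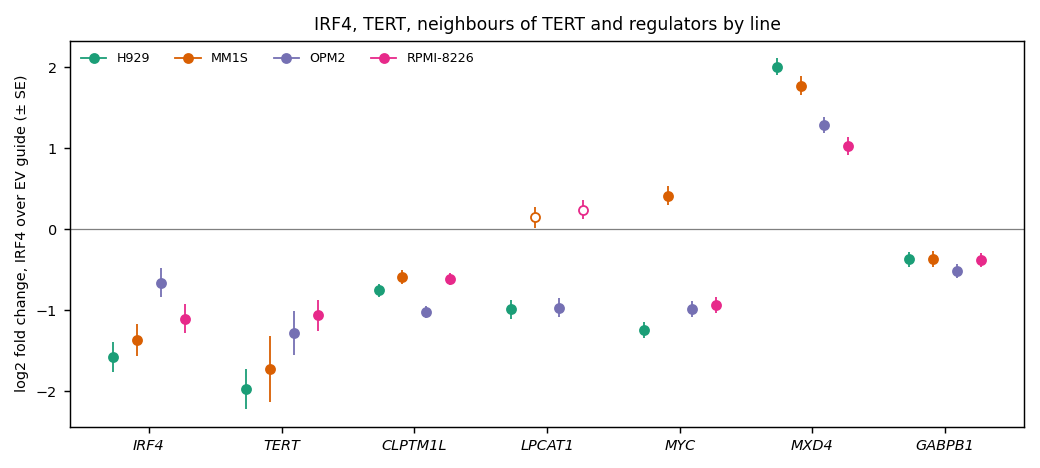
Points give the log2 fold change, IRF4 guide over EV guide, with its standard error, for IRF4, TERT, CLPTM1L, LPCAT1, MYC, MXD4 and GABPB1 in each line, filled where the adjusted p was under 0.05. TERT, CLPTM1L and GABPB1 lie below 0 and MXD4 above 0 in all lines, while MYC in MM1S (0.42) lies on the other side from the other lines.

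The profiles most like that of TERT over the 23 libraries were sought by the root mean square difference of log2 CPM, each gene centred on its own mean. TERT itself varied by 1.40 about its mean on this measure, and the median gene differed from it by 1.61. Closest was FADS1, a fatty acid desaturase, at 0.453, followed by POLR3G, a subunit of RNA polymerase III (0.532), OSBPL6 (0.533), GALNT14 (0.608) and TIPIN (0.622). Of the 5, 4 were also among the closest 5 over the 8 group means. FADS1 and POLR3G were called lower in all 4 lines, with POLR3G in MM1S losing its call without MM1S EV replicate 2 (-0.57, adjusted p = 0.104), and they fell by 1.30 ± 0.05 (adjusted p = 3.53e-18) and 1.27 ± 0.08 (7.11e-15) on the average. A fall is part of what makes a profile like that of TERT, so these values describe the choice and support nothing. Of the other 7 genes of telomerase and shelterin, ACD was closest to TERT, at 1.01 and rank 411, while TERF1 was at 1.77 and POT1 at 1.75, beyond the median gene.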

How the data were processed

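RNA of 4 myeloma lines was made into TruSeq libraries, per the labels' protocols, and the authors deposited whole-number counts per gene for 23 libraries and, for each library, log2 RPKM of 16220 genes. Subread, featureCounts and limma on GRCh38 were used, per the submitters' processing notes; the sources used here name no version, setting or use of strand. The deposited log2 RPKM values were normalised further between libraries by a method not given in these sources.

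From the counts, genes were kept by edgeR's filterByExpr (16468), scaled by TMM (factors 0.914 to 1.08) and fitted with edgeR 4.0.16 in R 4.3.3, with a mean for each of the 8 groups (robust quasi-likelihood). For every line the EV mean was subtracted from that of the IRF4 guide. The equal-weight average of these contrasts, an F test of their equality and the EV groups of pairs of lines were tested too. The Benjamini-Hochberg adjustment ran over all genes tested, with a threshold of 0.05. The average left out 1541 genes with a line at 0. Replicate libraries of a group correlated at 0.988 to 0.995 and differed by 3.58 to 26.4 times the counting variance, so none was merged. In simulated data for H929 (15461 genes) 68.89% of changes of 0.75 and 82.98% of changes of 1.50 on the log2 scale were recovered, with 6.667% false calls. Only 90 and 94 tested genes carried these changes, whereas 58.9% of all genes were called in H929. The simulated rates therefore need not hold for the real data.

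The 8 genes and the lists of other genes were chosen with earlier results of these data known. Named were all 8 genes, IRF4, up to 4 called genes per list with the smallest adjusted p on the average, the 6 neighbours of TERT (3 on each side) and the 5 profiles most like it. DKC1, TEP1, TERC, TEN1, XRCC6 and KLF2 were named after their values were seen, because they complete small counts. Alternatives were RLE and upper-quartile scaling, no filter, DESeq2 1.42.0, limma 3.58.1 on the log2 RPKM, each line fitted alone, replicate blocks and leaving out each library. LOC124900189, a neighbour of TERT, was not analysed here.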

Additional observations from a re-analysis of the deposited data

Results flagged for a closer look

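For 3 genes the guide effect differed between the 4 lines in edgeR's quasi-likelihood F test, adjusted over all genes tested, a difference that 48.0% of all genes showed. For POT1 the adjusted p was 0.00152, with log2 fold changes of 0.16 (H929), -0.41 (MM1S), 0.20 (OPM2) and 0.19 (RPMI-8226). For TINF2 it was 0.00632, with 0.56 (H929), 0.24 (MM1S), 0.16 (OPM2) and 0.11 (RPMI-8226). For IRF4, the gene under the guide, it was 0.0317, with -1.58 (H929), -1.37 (MM1S), -0.66 (OPM2) and -1.10 (RPMI-8226). Leaving out single libraries moved the p of IRF4 between 0.00510 and 0.0741, and it was over 0.05 without H929 EV replicate 1 or 2, MM1S EV replicate 2, OPM2 IRF4 guide replicate 2, or OPM2 EV replicate 1 or 3.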

How the results depend on the processing

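Over 31 other settings, left-out libraries included, 8694 values were recomputed. Of those of the 8 genes and IRF4, 3443 kept their side of the threshold and, where called, their direction, 56 lost a call and 47 gained one. No called value changed sign, where direction was compared if the main value or the recomputed value was called. On TERT, leaving out 1 library moved the average between -1.60 and -1.43. The number of the 8 genes called moved between 1 and 2 in OPM2, between 1 and 2 in RPMI-8226 and between 2 and 4 in MM1S when 1 library was left out, and the losses in OPM2 and RPMI-8226 were those of ACD. With a replicate block within each line, 3 genes in place of 5 differed between the EV groups of MM1S and OPM2 (TERF1 and TINF2 lost their calls), and that block called fewer of all genes there too. The replicate numbers were not taken to pair the libraries, since the labels give them no shared origin and deviations of same-numbered libraries correlated at 0.0256 to 0.183, over 0.1 in 6 of 11 pairs, all 3 pairs of OPM2 among them. With a replicate block shared by the lines TINF2 in MM1S gave 0.24 (adjusted p = 0.0450) and POT1 in OPM2 0.20 (0.0253). With the block within each line POT1 in RPMI-8226 gave 0.19 (0.0427).

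Scaling shifted the level that changes are read against. The median of all 16468 genes was 0.10 in H929 and 0.11 on the average with TMM (0.09 over the 14927 that could be called), against -0.07 and -0.03 on the deposited log2 RPKM, and 55.7% and 56.5% of called genes were higher with TMM, against 45.6% and 46.2%. Of the guide effects called on the average, those of TERT, ACD, TINF2 and TERF2IP were called in the same direction on both scales. Shelterin shares from CPM and gene length were not run, since gene lengths were not used here. Low counts limit RTEL1 and, in MM1S, TERT, and intervals from counts would cover counting error only.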
